A study of Mus musculus with 12 samples.

Results

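The regions described here are intergenic regions near genes: stretches of open chromatin that lie in no annotated gene but within 50 kb of a transcription start site. Overlapping peaks of 12 ATAC-seq libraries (1 bp or more in common) were merged, and a region was kept when its centre lay on chromosomes 1 to 19, in no gene of any type, and more than 1 kb but at most 50 kb from the nearest start site of any gene (GENCODE vM21 annotation of GRCm38). This gave 70283 near intergenic regions out of 263562 (26.7%). The others were 134222 regions inside a gene, 30926 promoters (within 1 kb of a start site), 23290 far intergenic regions and 4841 regions on the sex chromosomes.

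ATAC-seq uses the transposase Tn5 to insert adapters into accessible DNA, so that fragments pile up over open chromatin and a peak caller outlines them. The neurons were primary cortical neurons of wild-type C57BL/6 mouse embryos. They received PBS (the vehicle), pre-formed fibrils (PFF) of alpha-synuclein, which seed aggregation in neurons, PFF with MLi-2, which inhibits the kinase LRRK2, or PFF with an antisense treatment (ASO) that targets Rab5a and Rab5b, GTPases of early endosomes. Libraries are called MLi-2 and ASO for short below, and both of these groups received PFF too. Exposure lasted 7 days, with MLi-2 added for the last 5 days and the ASO for the last 3. Each of the 4 groups had 3 libraries, all labelled as batch 1, and no library with MLi-2 alone, ASO alone or a control oligonucleotide was analysed here. The effect of any oligonucleotide and the effect of Rab5 knockdown therefore cannot be told apart, and a culture is a mixture, so fewer cells of a type with an open region and less opening per cell cannot be told apart either.

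Distal open regions hold most of the enhancers that set cell-type and stimulus-dependent transcription in neurons. Transcription factors bind short motifs in them: AP-1 (Fos and Jun proteins) and MEF2 act in activity-dependent transcription, NeuroD-type factors in neuronal differentiation, RFX factors in ciliary and neuronal genes, CTCF at chromatin loop anchors and insulators, and TFEB and TFE3 bind the E-box inside the CLEAR element of lysosomal genes. An enhancer often skips the nearest gene, so the gene names used below only say where a region lies.

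Sequences of regions that the results below turn on, by height or by presence of a peak, are shown first, each with GRCm38 coordinates on the + strand, in at most 300 bases around the summit, with motif matches in capitals. Beyond the first in order they were picked for their motifs, so they do not show how often a motif occurs. Of the ranked regions left out, that of Gm18896 was higher with ASO and holds AP-1 and homeodomain matches, and that of Gm43539 holds an RFX half-site. Among those lower with ASO, Gucy2g and Gm34342 hold no match, and Gm48075 and Gm36742 hold AP-1. The first group holds regions that stood taller, or had a peak only there against PFF alone, in the PFF+Rab5 ASO libraries. In the regions named for Gm18320, Rpl31-ps25 and n-R5s157 the capitals mark the RFX motif (GTTGCC directly followed by ATGG), which in that of n-R5s157 runs into a match to the RFX half-site GTTNCCAT on the other strand. They mark in that of Gm5191 a match to the same half-site on the other strand and the homeodomain core TAATTA, and the region named for Gm13982, which had the largest effect, holds no match.
Gm13982, chr2:117389883-117390140: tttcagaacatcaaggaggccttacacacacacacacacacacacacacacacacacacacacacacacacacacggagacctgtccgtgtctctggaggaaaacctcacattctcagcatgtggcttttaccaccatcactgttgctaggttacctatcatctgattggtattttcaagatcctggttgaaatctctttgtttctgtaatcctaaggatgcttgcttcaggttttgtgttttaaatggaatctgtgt
Gm18320, chr8:55622434-55622733: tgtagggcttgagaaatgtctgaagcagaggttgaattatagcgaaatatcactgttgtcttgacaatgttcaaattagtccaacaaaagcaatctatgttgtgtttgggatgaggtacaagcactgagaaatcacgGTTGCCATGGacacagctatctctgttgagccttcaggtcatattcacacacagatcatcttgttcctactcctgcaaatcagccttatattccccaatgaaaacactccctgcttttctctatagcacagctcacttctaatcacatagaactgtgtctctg
Rpl31-ps25, chr17:81768136-81768435: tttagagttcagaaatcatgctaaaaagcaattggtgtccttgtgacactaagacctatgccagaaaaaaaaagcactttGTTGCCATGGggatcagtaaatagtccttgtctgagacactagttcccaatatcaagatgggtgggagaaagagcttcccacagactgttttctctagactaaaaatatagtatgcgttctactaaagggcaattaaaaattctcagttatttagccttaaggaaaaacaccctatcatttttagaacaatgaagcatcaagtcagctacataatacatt
n-R5s157, chr7:116633248-116633502: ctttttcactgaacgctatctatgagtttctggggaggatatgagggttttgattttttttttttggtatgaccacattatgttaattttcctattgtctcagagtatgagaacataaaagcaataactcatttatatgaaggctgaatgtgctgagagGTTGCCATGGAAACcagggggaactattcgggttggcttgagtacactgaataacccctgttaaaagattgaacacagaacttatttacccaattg
Gm5191, chr13:8124632-8124931: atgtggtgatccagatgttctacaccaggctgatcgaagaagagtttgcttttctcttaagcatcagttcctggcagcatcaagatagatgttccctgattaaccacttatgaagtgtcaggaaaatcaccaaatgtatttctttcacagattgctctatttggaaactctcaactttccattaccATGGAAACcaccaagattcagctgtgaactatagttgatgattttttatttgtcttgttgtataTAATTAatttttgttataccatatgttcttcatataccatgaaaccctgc

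The second group holds regions that were lower, or had no peak, in the PFF+Rab5 ASO libraries. The capitals mark 2 copies of CACGTG (the core of the CLEAR element) and an RFX half-site match in the region named for Fam240a, AP-1 (TGANTCA) with a NeuroD-type E-box (CAGATGG, here on the other strand) in that of Gm12647, and 3 AP-1 matches in that of Utrn.
Fam240a, chr9:110909639-110909915: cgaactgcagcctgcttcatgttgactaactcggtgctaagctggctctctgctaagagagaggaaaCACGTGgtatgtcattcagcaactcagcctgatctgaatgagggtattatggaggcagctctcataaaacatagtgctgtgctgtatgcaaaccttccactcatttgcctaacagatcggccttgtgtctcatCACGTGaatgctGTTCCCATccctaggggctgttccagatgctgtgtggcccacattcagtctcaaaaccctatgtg
Gm12647, chr4:94017794-94018054: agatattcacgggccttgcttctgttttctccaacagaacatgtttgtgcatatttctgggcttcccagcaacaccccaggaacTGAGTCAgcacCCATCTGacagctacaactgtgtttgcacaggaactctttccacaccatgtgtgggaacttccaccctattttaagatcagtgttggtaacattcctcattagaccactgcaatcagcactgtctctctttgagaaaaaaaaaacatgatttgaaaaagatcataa
Utrn, chr10:12878633-12878932: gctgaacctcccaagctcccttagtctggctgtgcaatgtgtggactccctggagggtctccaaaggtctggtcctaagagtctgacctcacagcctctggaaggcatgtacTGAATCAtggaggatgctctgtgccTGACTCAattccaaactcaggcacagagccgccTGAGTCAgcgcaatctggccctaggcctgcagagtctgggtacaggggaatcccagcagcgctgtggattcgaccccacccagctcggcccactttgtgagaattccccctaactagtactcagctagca

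The third group holds regions whose peaks or heights separated PFF from PBS or from PFF+MLi-2. In those comparisons limma called 0 of 18110 members, so these are not called differences. The capitals mark AP-1 in the region named for Gm7538, MEF2 (CTA and TAG with 4 free bases between) and the POU octamer ATGCAAAT in that of Acvr1c, and the FOXO motif GTAAACA in that of Cd38. The region named for Gm13593 is shown because it is repetitive.
Gm7538, chr5:119233013-119233312: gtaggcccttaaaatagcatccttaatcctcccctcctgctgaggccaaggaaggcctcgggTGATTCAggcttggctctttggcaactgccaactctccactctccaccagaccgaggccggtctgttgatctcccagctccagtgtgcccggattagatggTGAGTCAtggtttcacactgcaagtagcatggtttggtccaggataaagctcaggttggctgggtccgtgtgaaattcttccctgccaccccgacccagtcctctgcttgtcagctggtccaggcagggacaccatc
Acvr1c, chr2:58377820-58378093: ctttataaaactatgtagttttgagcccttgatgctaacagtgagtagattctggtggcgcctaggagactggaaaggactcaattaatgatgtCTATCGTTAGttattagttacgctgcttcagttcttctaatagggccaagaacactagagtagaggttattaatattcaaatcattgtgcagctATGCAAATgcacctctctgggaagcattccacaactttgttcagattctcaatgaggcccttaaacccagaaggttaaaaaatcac
Cd38, chr5:43849693-43849992: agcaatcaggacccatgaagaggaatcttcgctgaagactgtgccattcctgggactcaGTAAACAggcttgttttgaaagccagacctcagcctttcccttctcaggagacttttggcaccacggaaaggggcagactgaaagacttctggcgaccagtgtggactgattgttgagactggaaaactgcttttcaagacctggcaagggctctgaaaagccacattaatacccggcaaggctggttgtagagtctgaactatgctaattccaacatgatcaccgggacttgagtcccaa
Gm13593, chr2:65311331-65311599: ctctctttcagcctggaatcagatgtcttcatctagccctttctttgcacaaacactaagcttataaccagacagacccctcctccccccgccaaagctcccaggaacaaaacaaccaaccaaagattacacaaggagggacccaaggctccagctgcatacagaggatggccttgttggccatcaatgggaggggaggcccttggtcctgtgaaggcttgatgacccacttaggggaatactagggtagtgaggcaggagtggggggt

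Near intergenic regions were a moderately recurrent class. A peak was called in all 12 libraries in 18110 of them (25.8%), against 50.4% of promoters, 24.3% of regions inside genes and 20.9% of far intergenic regions, whereas 19090 (27.2%) had a peak in 1 library alone. Their median width was 147 bp, with 312 bp for those found in all 12 libraries and 66 bp for those found in 1. Within a library, member peaks were wider than far intergenic peaks by 8.75 bp on average (SD 1.22 over 12 libraries, 125 against 116 bp) and the difference from promoter peaks was -63.4 bp (125 against 189 bp). Their height, as the median percentile of fold enrichment among all peaks of the same library, was 2.98 points above regions inside genes, and the difference from promoters was -7.67 points. Each of these 4 differences had the same sign in 12 of 12 libraries (exact sign-change permutation test over libraries, two-sided, p = 0.000488, the smallest that 12 libraries can give, adjusted p = 0.000628 over 9 tests). The percentile differed less from far intergenic regions, by 1.15 points on average (-0.93 to 3.09). Members were higher there in 6 libraries and lower in 1 (adjusted p = 0.0352 in the same test). Against regions inside genes the summit pileup did not follow the percentile, at a median of 16 fragments in members and 16.3 in those regions (lower in 4 libraries and higher in 0, exact permutation p = 0.125). It did against the other classes: members had 1.58 fragments more than far intergenic peaks, and the difference from promoter peaks was -10.2. Both held in 12 of 12 libraries.

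Most of the regions lay upstream of the gene whose start site was nearest. There were 43816 upstream (62.3%) and 26467 downstream, at a median distance of 14.7 kb. The nearest gene was protein coding for 32.5%, a processed pseudogene for 24.1% and a lincRNA for 21.4%, so that the region names are often those of pseudogenes and predicted genes. Accessibility in all 12 libraries became rarer with distance, from 28.0% of the 11795 regions between 1 and 5 kb to 22.9% of the 9629 regions between 35 and 50 kb. The median GC content of the 201 bp around the summit was 47.8%, below the 59.2% of promoters and above the 44.3% of far intergenic regions.

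The members were spread over 18610 nearest genes, with a median of 3 and at most 29 per gene. The largest number of regions open in all 12 libraries was 14, next to the lincRNA gene Gm12108 on chromosome 11, followed by 11 next to 5830428M24Rik. Ddit4, which encodes a stress-induced inhibitor of mTORC1 signalling, had 10 of them between chr10:59916702-59974360, as had AC166654.1, Gm13373 and Gm25888. Calcoco1, Gm47241, Gm48867 and Tex44 each had 9.

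The 5 tallest regions were among the top peaks of every library. Those named for Gm43980 (chr6:49236452-49236593) and Gm25352 (chr3:5860350-5860519) reached percentile 100 in each of the 12 libraries. The 36 bases at their summits occur 2 and 12 times in the nuclear genome, so reads from the copies may add up there. The next were the regions named for 1810024B03Rik (99.8 to 100) and Rny3 (99.7 to 100), a Y RNA gene. That of Gm10509 stood at 99.7 to 99.9 in the 9 libraries without ASO and at 100 in each ASO library.

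The number of near intergenic regions with a peak varied as much within PBS as between groups. PBS libraries had 34438 ± 5918 such regions (SD, n = 3), PFF 36184 ± 2685, PFF+MLi-2 31858 ± 498 and PFF+Rab5 ASO 38073 ± 3341 (exact permutation test over 15400 partitions of the libraries, one-sided, p = 0.280, adjusted p = 0.337). PBS alone ran from 29540 to 41014. The share of a library's regions that were near intergenic was 26.7% ± 0.225 with ASO, 26.0% ± 0.207 with MLi-2, 25.8% ± 0.165 with PFF alone and 26.0% ± 0.262 with PBS (exact permutation test, adjusted p = 0.0213 over 4 measures). All 3 ASO libraries lay above the other 9, and without ASO replicate 1 or 2 the adjusted exact permutation p was 0.0618 or 0.0617. Their median peak width was 114 ± 5.51 bp, against 128 ± 2.08 bp with MLi-2, 133 ± 2.08 bp with PFF alone and 126 ± 4.51 bp with PBS (adjusted exact permutation p = 0.00779). With only peaks of a −log10 q-value of at least 5, neither the share nor the width passed the test (adjusted exact permutation p = 0.204 for both), and with the same number of top peaks in each library the width did not (0.332). Peaks of the other classes were narrower with ASO too. Far intergenic peaks measured 106 bp, against 117 to 124 bp as the other groups' means. Peaks inside genes measured 112 bp against 123 to 130 bp, and promoter peaks 177 bp against 190 to 198 bp. The far intergenic share was also highest with ASO, at 8.68% against 7.48% to 7.87%, whereas shares inside genes and of promoters were lowest there. These classes were not tested by group.

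The ASO libraries also stood apart in technical measures, whose part in the results below was not tested. The smallest peak width in a list was 53 to 59 bp in the ASO libraries and 62 to 66 bp in the others. Relative depth was 1.05 to 1.31 in the ASO libraries, 0.775 to 0.919 in PFF and 0.912 to 1.03 in the other groups. The median GC content of the member peaks was 47.6% ± 0.287 in the ASO libraries and 48.4% to 48.6% as the mean of each other group. Annotated repeats made up a median of 9.45% of the window in the ASO libraries and 6.47% to 8.96% in the other 9. The median summit pileup over all peaks was 16 to 18 fragments in each library, so whether a weak peak was called is subject to sampling.

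**Figure D1:**
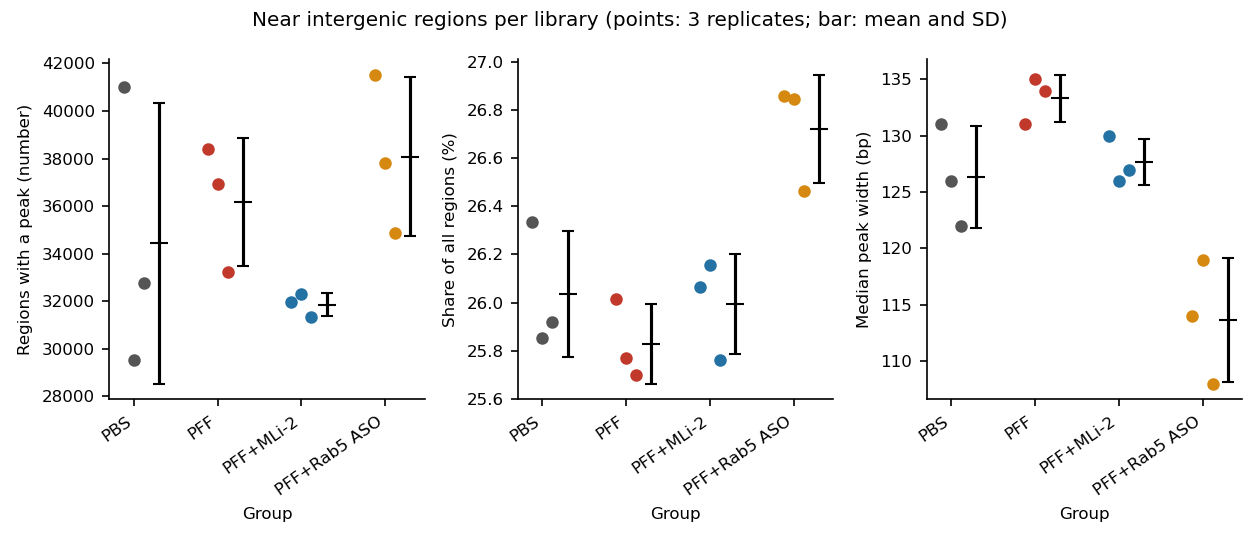
Near intergenic regions in each of the 12 libraries: the number with a peak, the share of the library's regions (%) and the median peak width (bp), with 1 point per library and the group mean and SD. The axes do not start at 0. The PFF+Rab5 ASO libraries have the highest shares (26.5% to 26.9%) and the narrowest peaks (108 to 119 bp), while the numbers overlap between groups.

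Promoters of most neuronal markers were open in every library. Of 7 neuronal markers, 6 had a promoter peak in all 12 libraries, among them Snap25, Syt1 and Neurod6, and Slc17a7 and Neurod6, which mark excitatory neurons, also had near intergenic regions open in all 12. Markers of other cells were open too: a promoter peak in 12 libraries was found for 3 of 5 interneuron markers (Gad2, Dlx1 and Dlx2), 2 of 4 astrocyte markers (Gfap and Slc1a3), 4 of 5 oligodendrocyte lineage markers, 4 of 5 progenitor markers and 0 of 5 microglial markers. The microglial genes Cx3cr1, Aif1 and Spi1 had no promoter peak in any library, and such a peak was found in 7 libraries at Csf1r and in 5 at Tmem119. Near intergenic regions open in all 12 libraries nevertheless lay next to Cx3cr1 (2 of 6) and Tmem119 (1 of 2), and the 4 next to Spi1 included none, with a peak of any of them in 11 libraries.

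Changes in height were tested on ranks. The 72408 regions that all 12 libraries shared were ranked by fold enrichment within each library, the ranks were turned into normal scores, and limma compared the groups over all these regions, of which 18110 were near intergenic. An effect is thus a difference in score, in SD units of the ranking, and a region was called at an adjusted p under 0.05. Percentiles given for single regions are ranks of the peak's fold among all peaks of that library. PFF alone serves as the reference for both treatments and PBS for all groups, so the comparisons share libraries. The p-values measure only the spread between these libraries, and an exact test of a single region with 3 libraries against 3 cannot go below 0.1.

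PFF vs PBS asks which regions open or close with fibrils. limma called 0 of 18110 near intergenic regions (0% of all regions in this comparison), with 2067 at an unadjusted p under 0.05, 1209 of them higher and 858 lower in PFF. The heights of the 3 PFF and 3 PBS libraries did not overlap in 15.4% of members and 15.1% of all tested regions. The call count was also 0 under each alternative tried, including ranking by p-value and adding the replicate number as a block.

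The uncalled members with the largest effects had adjusted p = 0.218 in limma. The region named for Gm34342 (chr1:184748576-184748995, 11.8 kb downstream) stood at percentiles 17.9, 29.9 and 29.9 in PBS, 83.8, 80.1 and 85.6 in PFF, 54.6, 66.0 and 49.8 with MLi-2 and 48.0, 6.62 and 19.2 with ASO. It was highest in all 3 PFF libraries, with PFF+MLi-2 above PBS and the ASO libraries on both sides of PBS (effect 1.97, SE 0.241). In the Gm13593 region the effect was 2.01, but the 36 bases at its summit occur 88 times in the genome. For Gm24692 it was 1.86.

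In the other direction, the region 18.7 kb upstream of Cd38, which encodes an NAD-consuming ectoenzyme, stood at 84.4, 72.5 and 83.7 in PBS, 48.8, 32.2 and 22.6 in PFF, 87.1, 91.8 and 78.0 with MLi-2 and 54.9, 55.4 and 19.2 with ASO. PBS and PFF+MLi-2 overlapped at the high end, and PFF and the ASO libraries overlapped at the low end. Its effect was -1.71 (SE 0.231) in PFF vs PBS and 2.07 (SE 0.254, limma adjusted p = 0.124) in PFF+MLi-2 vs PFF. A region named for Pabpc6 followed the same order, with 80.0, 83.7 and 69.5 in PBS, 55.6, 21.1 and 12.2 in PFF, 83.2, 85.6 and 81.4 with MLi-2 and 48.0, 39.3 and 50.4 with ASO. Both regions were picked for the size of these differences and neither passed the test.

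Presence of a peak was counted as well. A region counted as gained with a peak in 3 of 3 libraries of the group named first and in 0 of 3 of the reference, and as lost in the reverse case, out of the regions that any of the 6 libraries held. In PFF vs PBS, 638 of 56963 near intergenic regions were gained (1.12%) where 1.1% of all regions were, and 250 (0.439%) were lost where 0.404% of all regions were. Gained regions had a match to AP-1 in 17.1% and to the CLEAR E-box in 4.55%, against 11.7% and 3.09% of all near intergenic regions, and over all gained regions the shares were 15.4% and 5.16%. Lost regions had the homeodomain core in 12%, against 8.54%, and all lost regions in 11.5%. Among windows of 40 to 50% GC, a check added after the data were seen, AP-1 was in 17.1% of gained and 15.2% of lost members (12.97% of all near intergenic windows in the band). The CLEAR E-box was there in 6 of 245 gained members (2.45% against 2.85%), so the members' excess was not kept, whereas over all gained regions in the band it was in 35 of 950 (3.68% against 2.89%). The homeodomain core was there in 9.09% of lost members against 8.76%. The numbers lean on the libraries used: without PBS replicate 2, 860 members were gained and 955 lost (3195 and 3428 of all regions), so the balance turned.

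The tallest gained region, 33.1 kb upstream of Gm7538, stood at 84.3, 84.8 and 72.2 in PFF, at 48.4 and 41.5 in PFF+MLi-2 replicates 2 and 3, and had no peak in the other 7 libraries. The region 20.3 kb upstream of Pag1, an adaptor that restrains Src-family kinases, had a peak only in PFF (48.8, 80.1 and 75.7). The region 26.1 kb upstream of Inf2, a formin that shapes actin, stood at 72.3, 76.6 and 45.9 in PFF and at 38.6 in 1 PFF+MLi-2 library. These 3 regions were high or present in PFF and absent from PBS and ASO. The regions named for Gm20752 and Gm26439 were also gained, and had a peak in all 3 PFF+MLi-2 libraries as well.

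Among the lost, the region 20.1 kb upstream of Acvr1c, a type I receptor of the TGF-beta family, stood at 76.0, 56.2 and 71.9 in PBS and at 81.6, 73.9 and 56.6 in PFF+MLi-2. It had no peak in any of the 3 PFF and 3 ASO libraries. The regions named for Gm5270, 2900040C04Rik and Etnppl had a peak in all PBS and all PFF+MLi-2 libraries too.

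Where the other groups stood at these regions is given without a test, because the regions were chosen on PFF and PBS libraries that the comparisons share. Of the 638 members gained with PFF, 30.0% ± 3.94 had a peak in a PFF+MLi-2 library and 38.9% ± 5.10 in an ASO library (SD, n = 3). Of the 250 lost with PFF, 47.1% ± 6.89 had a peak in a PFF+MLi-2 library and 41.3% ± 8.78 in an ASO library. Over all gained and lost regions the corresponding shares were 28.2%, 36.7%, 50.8% and 42.9%.

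PFF+MLi-2 vs PFF sets fibrils with the LRRK2 inhibitor against fibrils alone. limma called 0 of 18110 members (0% of all regions), with 2338 at an unadjusted p under 0.05, and a fit of all 12 libraries called 20 (56 of all 72408 regions). The heights did not overlap in 16.9% of members and 17.6% of all regions. By presence, 203 of 53498 members were gained (0.379%) where 0.374% of all regions were, and 851 were lost (1.59%) where 1.64% of all regions were. The lost regions outnumbered the gained in a group with fewer peaks in all. When each library was cut to the same number of top peaks the counts were 364 gained and 506 lost (1302 and 1950 of all regions).

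The gained regions named for Acvr1c and Etnppl are among those lost in PFF vs PBS. The region 24.7 kb upstream of Nfib, a transcription factor of cortical and glial development, stood at 48.0, 77.0 and 67.1 in PFF+MLi-2 and at 17.9, 29.9 and 49.8 in PBS, with no peak in PFF or ASO libraries. That named for AC151289.1 was present in all PBS and PFF+MLi-2 libraries. The lost regions included those named for Gm49213, Pag1 and Gm29676, and those of Mrps36 (a mitochondrial protein gene) and Proz (a vitamin K-dependent plasma protein gene), which had a peak in each PBS, PFF and ASO library and in no PFF+MLi-2 library. The region 5.74 kb upstream of Syt17 had an effect of -1.45 (limma adjusted p = 0.153).

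PFF+MLi-2 vs PBS sets fibrils with the inhibitor against the vehicle and gave 0 of 18110 calls in limma (0% of all regions), with 1236 at an unadjusted p under 0.05, and heights apart in 10.5% of members and 10.3% of all regions. By presence, 122 of 52943 members were gained (0.23%) where 0.226% of all regions were, and 303 were lost (0.572%) where 0.577% of all regions were. Without PBS replicate 1 these counts were 567 and 459 (2007 and 1823 of all regions), so the balance turned. The largest uncalled effects were 1.73 in the region named for Slc35e3 and -1.38 in that named for Gm47965, with a limma adjusted p of 0.816.

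PFF+Rab5 ASO vs PFF sets fibrils with the antisense treatment against fibrils alone, and here members differed in both directions. limma called 424 of 18110 members higher (2.34%) where 1.97% of all regions were higher, and 408 lower (2.25%) where 1.86% of all regions were lower. The heights did not overlap in 27.4% of members and 25.9% of all regions. By presence, 1899 of 61465 members were gained (3.09%) where 2.63% of all regions were, and 1157 were lost (1.88%) where 1.94% of all regions were. The calls rest on all libraries: without ASO replicate 1 limma called 0, and without each of the other libraries it called 105 to 302. With the replicate number as a block it called 507 (1668 of all regions).

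The called regions differed in sequence composition. Those called higher had a median GC content of 44.0% and those called lower 51.5%, and the gained and lost regions had 40.8% and 49.3%. The gained share rose with distance from the start site, from 2.56% between 1 and 5 kb to 4.09% between 35 and 50 kb, whereas the lost share was 1.83% and 1.68% in these bands.

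The 12 called members described next were taken by effect from those whose ASO and PFF libraries did not overlap, so that separation was fixed by the choice. The region 27.7 kb downstream of Gm13982 stood at 26.6, 3.61 and 19.6 in PFF and at 72.4, 85.9 and 91.4 in the ASO libraries, with 52.8, 4.20 and 25.1 in PBS and 36.6, 32.3 and 26.9 in PFF+MLi-2 (effect 2.37, SE 0.338, limma adjusted p = 0.0153). The region named for Gm18320, with the RFX motif, stood at 48.8, 32.2 and 43.4 in PFF, 95.6, 84.5 and 93.5 with ASO, 48.0, 56.2 and 57.0 in PBS and 79.1, 28.7 and 31.7 with MLi-2 (effect 2.17). In both, the ASO libraries lay above all 9 others. The same held for the region named for Rpl31-ps25, a ribosomal protein pseudogene, also with an RFX match, which stood at 92.0, 89.8 and 81.7 with ASO and at 10.9 to 70.3 elsewhere (effect 2.04, limma adjusted p = 0.0204).

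The remaining regions of this rank were those named for Gm5191 (effect 2.17), Gm43539 (2.05), which hold a half-site match, and Gm18896 (2.04), which holds an AP-1 match. In each of them the lowest ASO library lay above the highest of the other 9, at 81.7 against 78.8 for Gm5191, 91.8 against 71.9 for Gm43539 and 95.3 against 78.0 for Gm18896.

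In the lower direction the region 7.08 kb downstream of Fam240a, with 2 copies of CACGTG, stood at 88.7, 86.3 and 85.5 in PFF and 11, 16.2 and 24.9 with ASO. It stood at 69.2, 68.4 and 64.7 in PBS and 42.8, 59.8 and 53.0 with MLi-2. The 4 groups did not overlap, with PFF highest, then PBS, PFF+MLi-2 and ASO (effect -2.43, SE 0.217, limma adjusted p = 0.0153). The region 43.4 kb upstream of Gm12647, with AP-1 and NeuroD-type matches, stood at 93.4, 96.3 and 94.5 in PFF, 65.6, 66.1 and 19.2 with ASO, 91.8, 91.5 and 81.2 in PBS and 85.9, 84.6 and 87.4 with MLi-2. The ASO libraries lay below the other 9, and the effect was -2.11 (limma adjusted p = 0.0168). The regions named for Gucy2g, a guanylate cyclase gene (-2.24), Gm34342 (-2.05), Gm48075 (-1.96) and Gm36742 (-1.96) were also called lower. These regions rest on summit pileups of 9 to 37 fragments. Of the 12 calls in both directions, 11 stayed past the threshold with the replicate block. With each library left out in turn, the highest limma adjusted p of a region was between 0.0549 (as for Fam240a) and 0.0829 (Gm36742). None of the 12 calls thus held in every such fit.

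**Figure D2:**
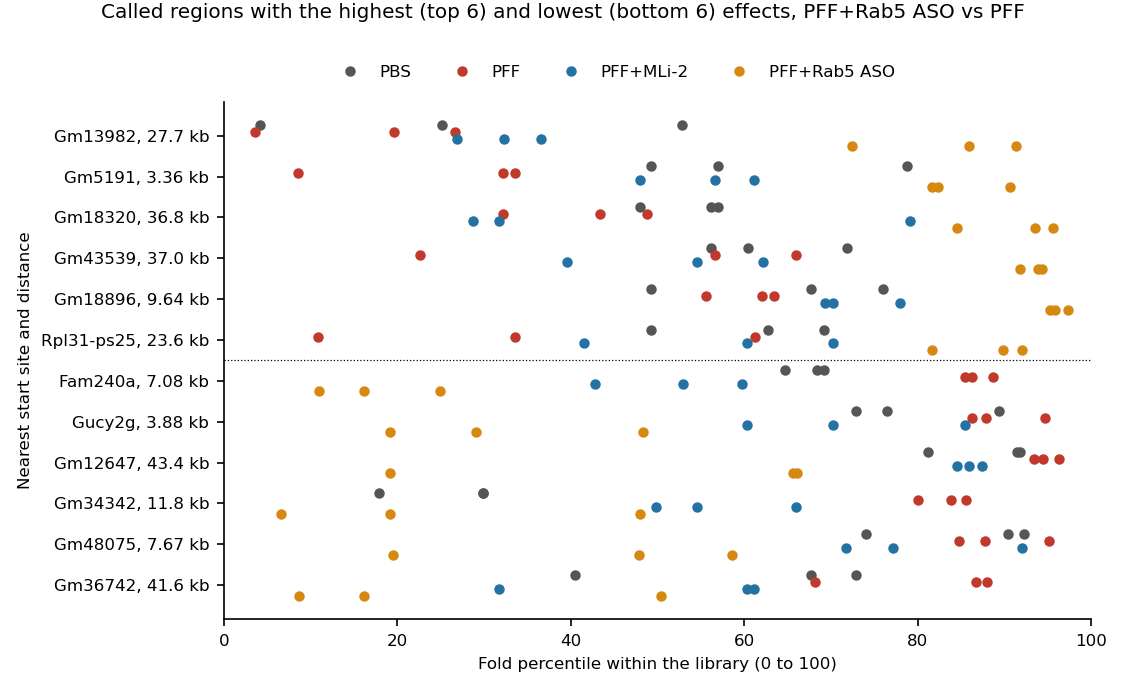
Percentile of fold enrichment within the library (0 to 100) for the 6 members with the highest and the 6 with the lowest called effects in PFF+Rab5 ASO vs PFF, 1 point per library, coloured by group. The regions named for Gm13982 and Gm18320 are highest in the 3 PFF+Rab5 ASO libraries, and that named for Fam240a is lowest there.

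The tallest gained region, 8.13 kb upstream of n-R5s157 and carrying the RFX motif, stood at 93.0, 92.3 and 89.4 with ASO. It had no peak in PFF, and weak peaks elsewhere (39.7 and 40.5 in 2 PBS libraries and 7.12 in 1 PFF+MLi-2 library). The regions named for Gm3942 (95.6, 84.5 and 94.5 with ASO), 2010007H06Rik, A630089N07Rik and 1700022H16Rik were likewise gained with at most 4 weaker peaks in the PBS and PFF+MLi-2 libraries. The region of A630089N07Rik is annotated as repeat over 91.5% of its window.

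The tallest lost region, 9.41 kb upstream of Utrn, which encodes the dystrophin homologue utrophin, stood at 76.9, 77.4 and 87.3 in PFF, at 60.4 in 1 PBS library and at 54.6 and 49.8 in 2 PFF+MLi-2 libraries. No ASO library had a peak there. The region named for Gm24177, with AP-1, CACGTG and NeuroD-type matches, stood at 88.0, 77.4 and 68.2 in PFF and was present in all PBS and PFF+MLi-2 libraries. Those named for Gm7538, C330018D20Rik and Gm38285 were lost too. Over the 1899 gained members, 34.7%, 10.2% and 14.0% had a peak in the 3 PBS libraries, and over the 1157 lost members 64.6%, 38.2% and 47.4%, with PBS replicate 1, the library with the most peaks of its group, highest in both.

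**Figure D3:**
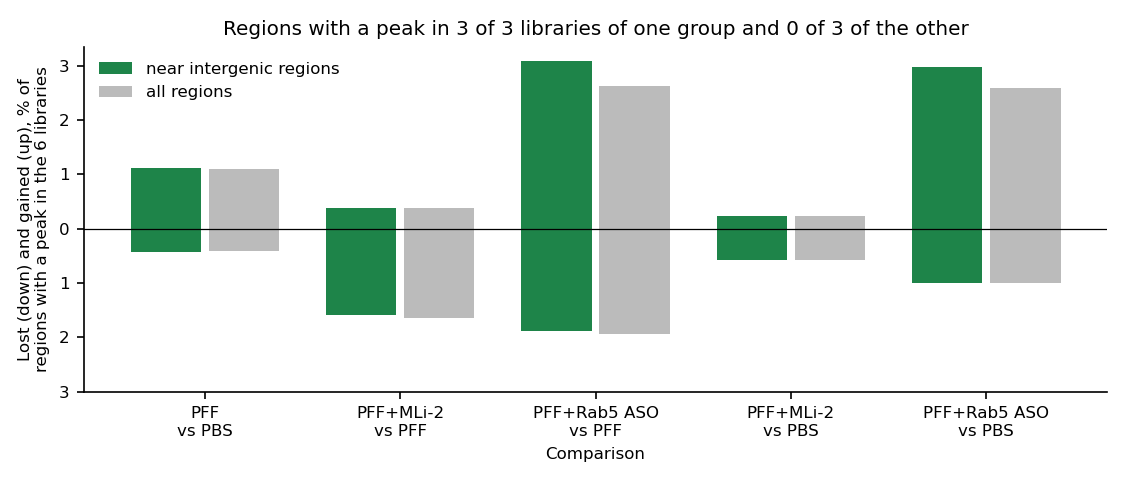
Share of near intergenic regions and of all regions gained or lost by presence of a peak (%), by comparison. The PFF+Rab5 ASO comparisons have the highest gained shares (3.09% and 2.97% of members), against 2.63% and 2.59% of all regions. Bars above 0 are gained and bars below 0 lost.

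PFF+Rab5 ASO vs PBS shares the ASO libraries with the comparison above. limma called 235 of 18110 members higher (1.30%) where 1% of all regions were higher, and 131 lower (0.723%) where 0.627% of all regions were lower. The heights did not overlap in 25.1% of members and 23.0% of all regions. By presence, 1815 of 61080 members were gained (2.97%) where 2.59% of all regions were, and 611 were lost (1.00%) where 0.992% of all regions were. With the replicate block limma called 0, with 4103 members at an unadjusted p under 0.05. Leaving out any of the 6 libraries gave 0 to 10 calls (0 to 29 of all regions), whereas a fit of all 12 libraries called 592 (1911 of all 72408 regions).

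The largest effect was in the region 40.6 kb downstream of Gm26509, which stood at 33.7, 6.27 and 7.62 in PBS, 47.1, 71.8 and 53.9 in PFF, 34.6, 33.2 and 47.1 in PFF+MLi-2 and 87.3, 89.1 and 90.9 with ASO. The ASO libraries were highest and PBS lowest but for 1 overlap with PFF+MLi-2 (effect 2.68, SE 0.233, limma adjusted p = 0.0193). The regions named for Gm23984 (2.41), Gm4929 (2.31), Gm43279 (2.26), Gm19184 (2.14) and Gm43405 (2.13) were called higher, and those named for AC147251.1 (-1.95), Gm14642 (-1.82), Gm48075 (-1.79), Gm47325 (-1.78), Gm14169 (-1.71) and Gm42498 (-1.69) lower.

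Members with the RFX motif were called in 1 direction with ASO. It was searched, like 14 other motifs, on both strands in the 201 bp around the summit of the strongest peak, and matches describe letters only, not binding. The motif was rare, in 879 of 70283 members (1.25%) and 1.07% of all regions. In PFF+Rab5 ASO vs PFF it was in 40 of the 424 members called higher (9.43%) and in 0 of the 408 called lower, a count that allows a share of up to 0.735%. It was in 90 of the 1899 gained members (4.74%) and in 0 of the 1157 lost, which allows up to 0.259%. Over all regions the shares were 8.08%, 0.149%, 3.82% and 0.112%, so the pattern is not limited to intergenic regions near genes.

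The half-site GTTNCCAT, searched after the first result was seen and overlapping the full motif, followed the same split. It was in 27.6% of members called higher, 3.19% of those called lower, 17.9% of gained and 3.11% of lost members, against 6.93% of all near intergenic regions. Over all regions the shares were close to these, at 23.8%, 3.42%, 16.2% and 3.00%, against 6.11%. In a check added after the data were seen, which narrows but does not match composition, windows were kept at 40 to 50% GC: the full motif was in 25 of 242 members called higher (10.3%) and 0 of 149 called lower, and in 5.94% of gained and 0% of lost members, with 1.44% of all near intergenic windows in the band.

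The height of members with the motif showed the same in each library, without any call. Over the members open in all 12 libraries, the mean score of the 324 with an RFX match minus that of members without one was 0.483 ± 0.0283 with ASO (SD, n = 3), 0.0948 ± 0.0543 with MLi-2, -0.0151 ± 0.0116 with PFF alone and 0.0583 ± 0.0251 with PBS. The lowest ASO library was at 0.462 and the highest of the other 9 at 0.140. The share of a library's member peaks with the motif was 1.85% ± 0.0551 with ASO and 1.36% to 1.46% in the other groups' means. In the limma fits, 40 of these 324 regions were called higher and 0 lower in PFF+Rab5 ASO vs PFF (1.97% and 1.86% of all regions), with a median effect of 0.40 where all members had -0.03, and against PBS 23 were higher and 0 lower (1% and 0.627% of all regions, median 0.38, all members -0.02). For fibrils against PBS and for MLi-2 against fibrils alone the medians were -0.05 and 0.08, with 0 calls.

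**Figure D4:**
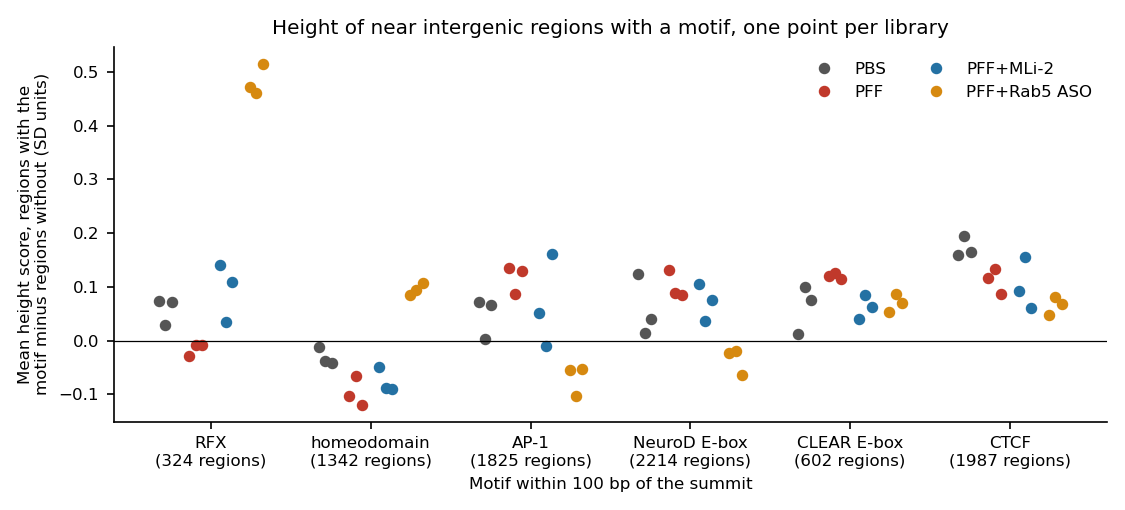
Mean height score of near intergenic regions with a motif minus that of regions without it, 1 point per library and 1 column per motif, over regions open in all 12 libraries. The PFF+Rab5 ASO libraries stand above the others for RFX (0.462 to 0.515) and below them for AP-1.

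Homeodomain cores were split in the same direction, less so in the 40 to 50% GC band. TAATTA was in 8.54% of members and 7.67% of all regions, in 12.7% of members called higher and 2.45% of those called lower in PFF+Rab5 ASO vs PFF, as well as in 15.5% of gained and 3.72% of lost members. Over all regions the shares called higher and gained were larger, at 14.5% and 17.4%. The core is AT-rich, and in the 40 to 50% GC band the shares were 10.3% and 4.03% of members called higher and lower, and 9.23% and 4.07% of gained and lost, beside 8.76% of all near intergenic windows in the band. The members' gained share thus stood close to that of the band, and the lower and lost shares under it. Over all regions in the band, 13.6% of those called higher and 11.5% of the gained held the core, against 8.71%.

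AP-1 and the NeuroD-type E-box had the opposite distribution. AP-1 was in 11.7% of members (10.8% of all regions), and in PFF+Rab5 ASO vs PFF in 6.13% of members called higher against 27.7% of those called lower, and in 7.16% of gained against 28.3% of lost. The NeuroD-type E-box was in 10.7% of members (9.91% of all regions), with 6.60% and 24.8% of members called higher and lower and 5.64% and 17.7% of gained and lost. In the GC band the shares called higher and lower were 5.79% and 28.9% for AP-1 and 7.03% and 32.2% for the NeuroD-type E-box, beside 12.97% and 11.7% of all near intergenic windows in the band. Over all regions the called lower shares were 24.8% and 22.8%. The mean height difference for AP-1 was -0.0706 ± 0.0283 with ASO, 0.117 ± 0.0264 with PFF alone, 0.0677 ± 0.0863 with MLi-2 and 0.0472 ± 0.0389 with PBS. The ASO libraries lay below the other 9, and the PFF+MLi-2 libraries spread over the range of the PBS and PFF libraries and beyond it.

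Motifs that differed in PFF differed by little. Of the CLEAR element only the core CACGTG was searched, so its counts are not counts of the full element. The CLEAR E-box CACGTG was in 3.09% of members and 3.51% of all regions, and in 3.33% ± 0.0380 of member peaks in PFF libraries against 3.07% ± 0.0237 with ASO, 3.03% ± 0.105 with MLi-2 and 3.09% ± 0.0764 with PBS. The 3 PFF libraries (3.29% to 3.37%) lay above the other 9, which reached 3.18%. The height difference was 0.121 ± 0.00580 in PFF, and no other library exceeded 0.0991. For the cyclic AMP response element TGACGTCA it was 0.253 ± 0.00965 in PFF, above the 0.219 of the highest other library, on 63 members. PFF libraries also lay below the other 9 for RFX (-0.0285 to -0.00787, against 0.0293 or more), for its half-site, and for the POU octamer (-0.0885 to -0.0545, against -0.0530 or more). Of the 602 tested members with the CLEAR E-box, 0 were called in PFF vs PBS.

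CTCF matches were commoner in recurrent regions. They were in 5.48% of members and 4.46% of all regions, in 10.97% of members open in all 12 libraries and in 2.24% of those open in 1. Of the 1987 tested members with a match, 7 were called higher and 18 lower in PFF+Rab5 ASO vs PFF, 0.352% and 0.906%, below the 2.34% and 2.25% of all tested members.

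**Figure D5:**
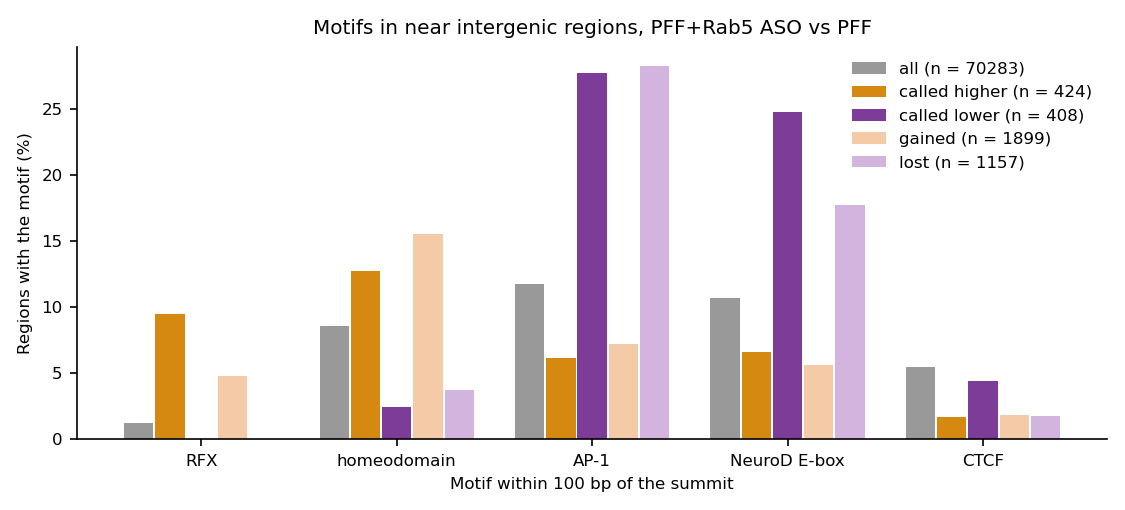
Share of near intergenic regions holding a motif (%), in the regions called higher, called lower, gained and lost with ASO against PFF, beside all near intergenic regions. RFX and homeodomain matches are commoner in the higher and gained sets, AP-1 and NeuroD-type matches in the lower and lost sets.

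Regions next to genes of interest were described with 9 lists, which hold 232 genes, of which 114 were nearest to 430 members. Of these members, 152 (35.3%) were open in all 12 libraries and tested. In PFF vs PBS and PFF+MLi-2 vs PFF limma called 0 of them. In PFF+Rab5 ASO vs PFF it called 5 higher and 2 lower, where 1.97% of all regions were higher and 1.86% lower, with a median effect of 0.09 where all members had -0.03 and all regions 0.01, and 8 of the 430 were gained and 6 lost, where 2.63% and 1.94% of all regions were. These are calls of single regions and no list was tested as a group. By list, the members were 72 next to 14 activity-regulated genes, 101 for cortical projection neuron factors, 50 for interneuron genes, 39 for glial genes, 32 for neural progenitor genes, 29 for lysosomal genes, 25 for LRRK2, Rab and parkinsonism genes, 53 for synaptic genes and 29 for senescence and stress genes.

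In PFF+Rab5 ASO vs PFF, 2 of 19 tested members next to synaptic genes and 2 of 19 next to interneuron genes were called higher, beside the 1.97% of all regions. Next to synaptic genes they lay 1.38 kb upstream of Stx1a, a SNARE protein of vesicle release (effect 1.34, limma adjusted p = 0.0281), and 2.37 kb upstream of Camk2b, a calcium/calmodulin-dependent kinase subunit, with the RFX motif (1.19, adjusted p = 0.0268). The Camk2b region stood at 32.3, 42.5 and 35.5 with ASO and at 1.27 to 24.8 in the other libraries, without overlap. Next to interneuron genes they included the region 2.00 kb upstream of Gad2, a GABA-synthesising enzyme (effect 1.13, limma adjusted p = 0.0345). With 1 library left out, the limma adjusted p ran from 0.0375 to 0.0853 for Stx1a, 0.0459 to 0.0825 for Camk2b and 0.0478 to 0.101 for Gad2. Each of these calls was thus lost in at least 1 such fit.

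Of 17 tested next to glial genes, a region near Slc1a3, the astrocytic glutamate transporter, was higher (1.44) and a region near Mbp, a myelin protein, was lower (-1.1, limma adjusted p = 0.058 with the replicate block). The Mbp region was also lower in PFF+Rab5 ASO vs PBS (-1.17). Among lysosomal genes, 1 of 6 tested was called: the region 7.18 kb upstream of Npc1, the lysosomal cholesterol transporter, was lower with ASO (-1.57, limma adjusted p = 0.0223). It stood at 86.3, 96.3 and 83.9 in PFF, at 54.9, 55.4 and 57.6 with ASO, at 78.8, 56.2 and 71.9 in PBS and at 65.1, 66.0 and 62.2 in PFF+MLi-2. PFF was highest and overlapped no other group. A region 20.3 kb downstream of Npc2, the soluble partner of Npc1, was higher in PFF+Rab5 ASO vs PBS (1.5, limma adjusted p = 0.0269). With any 1 library left out, the adjusted p against PBS was 0.0562 to 0.0813 for Npc2 and 0.0566 to 0.116 for Mbp, and with the replicate block it was 0.0739 and 0.0789, so neither call held. Against PFF, leaving out 1 library gave a limma adjusted p of 0.0406 to 0.0805 for Slc1a3, 0.0408 to 0.0753 for Npc1 and 0.0483 to 0.123 for Mbp. Those calls were also lost in at least 1 such fit.

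By presence, few regions at listed genes changed. In PFF vs PBS, a region 15.2 kb downstream of Plekhf1, a lysosome-associated phosphoinositide-binding protein, was gained, and regions near Nfib and Arsb, a lysosomal sulfatase, were lost. The Arsb region stood at 39.7, 40.5 and 17.7 in PBS and at 29.1, 73.9 and 57.6 with ASO, with peaks in 2 PFF+MLi-2 libraries and none in PFF. With ASO against PFF, gained regions lay near Arc, the activity-regulated synaptic gene (78.1, 67.9 and 79.6 with ASO, and 8.30 in 1 PFF+MLi-2 library), and near Cux1, Nfib, Maf, Gria1, Rabep1 (an effector of Rab5), Foxo3 and Arsb. Lost regions lay near Egr3, an immediate-early transcription factor, Tle4, Lamp1 (a lysosomal membrane protein), Gria1 and Sst, which had 2 of them. Gria1, an AMPA receptor subunit, thus had a gained region 26.7 kb and a lost region 11.4 kb upstream.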

How the data were processed

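ATAC-seq was performed on 12 libraries of primary cortical neurons. Groups were taken from titles and treatment labels, which name PFF for the MLi-2 and ASO libraries where their descriptions have PBS. Per the study's methods and processing notes, the authors used Trim Galore 0.6.7 for trimming, Bowtie2 2.5.1 for alignment to GRCm38 and MACS2 2.2.7.1 for peak calling, library by library without pooling. The MACS2 options, duplicate handling and Tn5 shift are not given in the sources used here, and they would alter peak widths and heights. The deposited lists hold, per peak, a score, a fold enrichment (a ratio to local background, used for ranks and percentiles), a −log10 p-value and a −log10 q-value (used as alternatives). The deposited score was not used. Summit pileup and relative depth were derived from the fold and the −log10 p-value.

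Regions, classes, gained and lost sets and motif matches were computed in Python 3.11.15 (numpy 2.4.6, pandas 2.3.3, scipy 1.17.1, matplotlib 3.10.9). The start site of a gene was its annotated 5′ end, and sequences are from the GRCm38 genome. Height scores were tested in R 4.3.3 with limma 3.58.1 (a moderated fit without covariates on the 6 libraries compared, with Benjamini-Hochberg adjustment over 72408 regions). The fit was tested on simulated data. Library measures were tested by exact permutation over groups. Fold values are not counts, so no count model was used, and read counts were not analysed here.

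The members and gene lists were chosen with earlier results of these data known. Regions named were the 6 highest and 6 lowest called effects per comparison among members whose groups did not overlap (the 3 highest and 3 lowest where none was called), the 5 tallest gained and 5 tallest lost of 3 comparisons, the 5 tallest in the mean of 12 libraries, the 10 nearest genes with the most members open in all libraries (ties by name), and called, gained or lost members at listed genes, at most 4 per list and comparison. Some regions that met these rules are not reported here. Sequences beyond the first in order were picked for their motifs after the values were seen. The RFX half-site and the GC band were added after the data were seen. Motifs searched were AP-1, the CLEAR E-box, the NeuroD-type E-box, homeodomain, RFX and its half-site, POU octamer and FOXO as spelled in the report, CRE (TGACGTCA), EGR (GCGTGGGCG), SP/KLF (GGGGCGGGG), ETS (CCGGAAGT), MEF2, CTCF and NFI. Alternatives tried were other start sites, centres, peak thresholds, numbers of peaks, overlaps, presence rules, ranked values, fits, the replicate block and leaving out each library.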

Additional observations from a re-analysis of the deposited data

How the results depend on the processing

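Whether the replicate numbers pair the libraries is not settled: the labels do not tie a number to a litter, and the study's methods count each pregnancy as a replicate whose cultures were divided among groups. Deviations from the group mean correlated at 0.00538 to 0.0725 over 18 pairs of same-numbered libraries, all above 0. Those of other numbers correlated at -0.0766 to 0.0314 over 36, of which 28 were below 0. In 12 of 12 libraries the best correlation was with one of their own number, a hint from the data and not from the design. Deviations within a group sum to 0 by construction. Positive values at the same number therefore push the others below 0, which is not separate evidence, and the best matches follow in part from this. When the replicate number was a block, limma called 507 members for ASO against PFF and 0 for ASO against PBS (1668 and 0 of all 72408 regions). The share and the width by group kept adjusted p = 0.0347 in the blocked exact permutation test, and 17 of 33 named calls stayed past the threshold. In PFF+Rab5 ASO vs PBS limma called 129 members when ranked by −log10 p-value and 592 in a fit of all 12 libraries, which called 20 in PFF+MLi-2 vs PFF. Over all regions these counts were 412, 1911 and 56.

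Counting a region as gained or lost with at least 2 of 3 libraries against 0 of 3 is a wider rule, and gave 2394 gained and 1497 lost for PFF against PBS, 1032 and 3177 for MLi-2 against PFF, 4604 and 3280 for ASO against PFF, 859 and 2000 for MLi-2 against PBS, and 4500 and 2327 for ASO against PBS. Over all regions, in the same order, the counts were 9361 and 5351, 3761 and 12436, 15260 and 13123, 3139 and 7367, and 15306 and 8953. Equal numbers of top peaks gave 364 gained and 506 lost in PFF+MLi-2 vs PFF and 189 gained in PFF+MLi-2 vs PBS. A −log10 q-value of at least 5 left 158 lost in PFF vs PBS and 166 in PFF+MLi-2 vs PBS, and a cover of at least 50% gave 1823 lost in PFF+Rab5 ASO vs PFF. Over all regions the equal numbers gave 1302, 1950 and 739, the q-value 509 and 658, and the cover 6908. Under the q-value threshold the share and the width by group both had adjusted exact permutation p = 0.204, and with equal numbers of peaks the width had 0.332. The cause of these shifts was not tested.

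Leaving out 1 library asks for fewer libraries to carry a gained or lost peak. It gave 860 to 1555 gained and 351 to 955 lost for PFF against PBS, 299 to 533 and 1323 to 1879 for MLi-2 against PFF, 2214 to 3050 and 1397 to 2135 for ASO against PFF, 192 to 567 and 459 to 1241 for MLi-2 against PBS, and 2072 to 3354 and 778 to 1598 for ASO against PBS. Over all regions these ranges were, in the same order, 3195 to 5985 and 1259 to 3428, then 1127 to 1943 and 5283 to 7377. For ASO against PFF they were 7101 to 9926 and 5398 to 8365. Against PBS they were 710 to 2007 and 1823 to 4650 for MLi-2, and 6741 to 10998 and 2870 to 6066 for ASO. limma then called 0 to 302 members for ASO against PFF (0 without ASO replicate 1), 0 to 10 for ASO against PBS and 0 in the other comparisons. Over all regions it called 0 to 981, 0 to 29 and 0. Adjusted exact permutation p by group was 0.0621 to 0.471 for the number, 0.0188 to 0.0618 for the share, 0.0026 to 0.0332 for the width and 0.0994 to 0.627 for the percentile. With start sites of protein-coding genes only, 45513 regions qualified.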

Other observations

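Some values belong to no comparison above. The MEF2 motif (CTA and TAG with 4 free bases between, both strands) was in 4.35% of near intergenic regions and 4.05% of all regions, and in 4.69% ± 0.0138 of member peaks in PFF+Rab5 ASO libraries against 4.33% to 4.41% as the means of the other groups. The POU octamer was in 2.02% of members and 1.76% of all regions, and in member peaks at 2.16% ± 0.00390 with ASO and 1.88% ± 0.0198 with PFF. Among regions open in all 12 libraries, members with an ETS match stood higher than those without by 0.239 with ASO, 0.310 with MLi-2, 0.281 with PFF alone and 0.223 with PBS.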
